A study of Homo sapiens with 20 samples.

Results

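The untreated libraries of 5 gastric cancer cell lines were compared by CpG island methylator phenotype (CIMP): 3 CIMP+ lines, YCCEL1, SNU719 and AGS, against 2 CIMP− lines, HGC27 and SNU16. The comparison took every library grown with DMSO, 10 of the 20 in the series, of which 6 are CIMP+ and 4 are CIMP−. RNA was sequenced after 72 h in DMSO, the vehicle of the decitabine arm, and each line has 2 libraries. YCCEL1 and SNU719 carry Epstein-Barr virus (EBV), and AGS and SNU16 do not, while the study's text gives no EBV status for HGC27. No engineered allele is named for any line, and EBV and CIMP status come from the study rather than from the sample labels. The study's list of cell lines holds MKN74, whereas the sample labels name HGC27. Each line is a single established line, and where its 2 libraries are not separate cultures a p-value measures only technical spread. Per the labels, YCCEL1 and HGC27 were kept in EMEM and SNU719, AGS and SNU16 in RPMI, so the medium did not follow CIMP status.

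CIMP tumours carry dense methylation of the cytosines in CpG islands, the CG-rich stretches that sit at many gene starts. DNA methyltransferases write the mark, UHRF1 carries it through replication, and TET enzymes oxidise it. Methylation of a promoter is known to accompany silence of its gene, and in the stomach CIMP is most pronounced in EBV-associated cancers. Methylation data were not analysed here, so all values below are RNA levels. They are the authors' normalized values, not per length, so a level is compared between samples and not between genes.

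Sequence upstream of 5 genes that the results turn on is given from RefSeq on GRCh38.p14, 5′ to 3′, and includes CG-rich and CG-poor stretches. For RARB, a retinoic acid receptor, 30 bases are shown and the capitals mark 17 of them, GGTTCA and AGTTCA separated by 5 bases. For CHFR, a mitotic checkpoint ubiquitin ligase, SLC6A8, the creatine transporter, SESN1, a sestrin of the stress response, and CLDN2, a tight junction claudin, the capitals mark each CG. RARB, CHFR and SLC6A8 were low in the CIMP+ lines, and SESN1 and CLDN2 were high.
RARB chr3:25428204-25428233 (+ strand): gggtagGGTTCACCGAAAGTTCActcgcat
CHFR chr12:132887609-132887841 (- strand): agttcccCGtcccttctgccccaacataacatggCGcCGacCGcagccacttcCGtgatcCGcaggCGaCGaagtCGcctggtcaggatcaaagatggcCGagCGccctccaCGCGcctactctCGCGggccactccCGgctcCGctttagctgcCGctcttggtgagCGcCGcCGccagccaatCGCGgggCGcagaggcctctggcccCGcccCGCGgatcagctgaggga
SLC6A8 chrX:153687796-153687925 (+ strand): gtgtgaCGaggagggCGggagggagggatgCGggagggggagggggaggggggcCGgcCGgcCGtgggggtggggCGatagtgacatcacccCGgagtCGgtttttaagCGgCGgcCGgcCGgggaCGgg
SESN1 chr6:109094847-109095096 (- strand): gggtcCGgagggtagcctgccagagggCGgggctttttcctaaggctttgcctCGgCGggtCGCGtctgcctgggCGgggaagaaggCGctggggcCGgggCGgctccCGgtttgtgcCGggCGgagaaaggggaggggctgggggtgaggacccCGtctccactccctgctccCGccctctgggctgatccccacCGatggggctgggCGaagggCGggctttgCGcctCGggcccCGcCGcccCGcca
CLDN2 chrX:106918110-106918359 (+ strand): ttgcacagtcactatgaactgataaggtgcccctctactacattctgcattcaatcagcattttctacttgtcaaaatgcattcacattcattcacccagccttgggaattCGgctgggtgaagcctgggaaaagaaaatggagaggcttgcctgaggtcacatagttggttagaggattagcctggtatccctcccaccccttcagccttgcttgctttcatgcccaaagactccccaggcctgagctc
The stretches end at or shortly before a listed start, except that of RARB, and stretches inside any exon of the GENCODE annotation were left out for the other 4 genes. CHFR held 27 CG in 233 bases, SLC6A8 14 in 130, SESN1 23 in 250 and CLDN2 1 in 250. In these stretches, CG-rich sequence stood before SESN1, which was high in the CIMP+ lines, as well as before CHFR and SLC6A8, which were low. CHFR has 2 listed starts, SESN1 3 and CLDN2 2, and the start with the longest stretch outside exons is shown. Which start the lines used was not determined. The retinoid motif of RARB, searched on both strands in windows of 300 bases, occurred in 6 of 35116 listed promoters (0.0171%), and lay upstream of 1 of the 4 starts listed for RARB.

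The 10 libraries held 20851 to 22927 genes above 0, with summed values of 8067385 to 9321014. About 7098084 to 10454154 reads per library would give the smallest steps in the values. No reference gene of the 15 checked fell below 83.5 in any library. Replicates correlated at 0.971 to 0.980 across genes on log2(value + 1). The line means of the CIMP+ lines correlated with one another at 0.904 to 0.921, SNU16 with those lines at 0.884 to 0.889, and HGC27 with the 4 others at 0.786 to 0.814. SNU16 was thus nearer to each CIMP+ line than to HGC27, with which it correlated at 0.797. These are correlations across genes, which are not independent replicates, and they are given as a description.

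**Figure D1:**
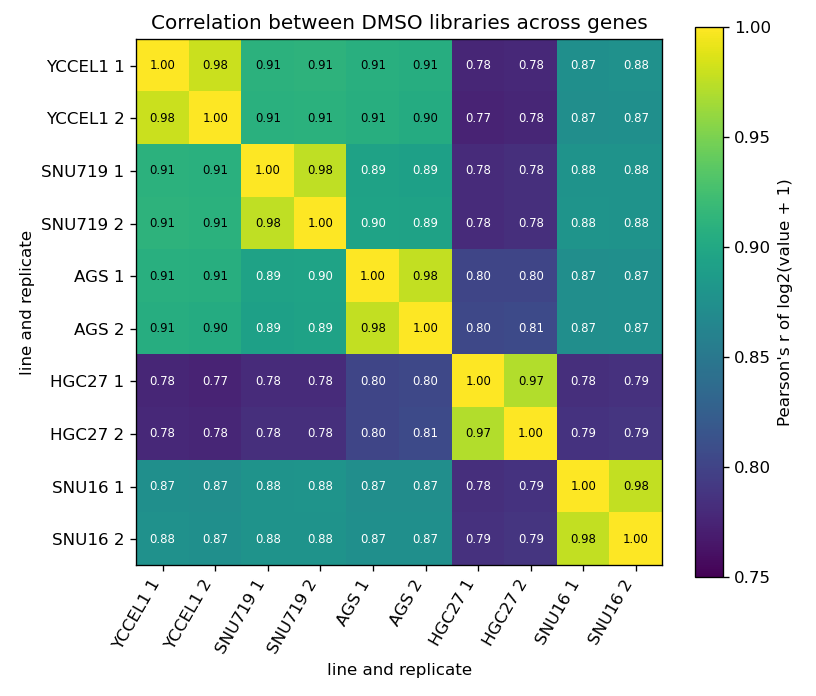
Pearson's r of log2(value + 1) across the 27350 tested genes between the 10 DMSO libraries, by line and replicate. The 2 libraries of a line are the most alike (0.971 to 0.980), and the HGC27 libraries stand apart from those of the other 4 lines.

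Defining markers of gastric epithelium were checked in every library. The summed value of EPCAM, KRT8, KRT18, KRT19 and CDH1 was at least 31499 in each library of YCCEL1, SNU719, AGS and SNU16, but 115 and 173 in the 2 HGC27 libraries. Fibroblast markers went the other way, with COL1A1, COL3A1, PDGFRB, LUM and DCN summing to 46924 and 47454 in HGC27 and to 6.93 to 299.9 in the other libraries. Vimentin, an intermediate filament of mesenchymal cells, had values of 34.5 and 20.4 in YCCEL1, 27.5 and 51 in SNU719, 57.3 and 80.5 in AGS, 71737 and 72756 in HGC27 and 0 and 1.94 in SNU16. HGC27 was therefore far lower in the epithelial markers that its tissue label implies and high in fibroblast markers, and SNU16 was near 0 in vimentin and high in the epithelial ones. Lymphocyte markers summed to at most 12.7 and endothelial markers to at most 5.88 in any library. In bulk RNA, fewer cells of a type and less RNA per cell cannot be told apart. The counts of the gene lists other than those of marker, reference and study-named genes are therefore also given without HGC27 and without SNU16, alternatives that were added after the values were seen for the gene lists.

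The question of the comparison was which genes differ at baseline between CIMP+ and CIMP− lines. CIMP status belongs to the line, so the line is its replicate, and the test of the group difference was limma on 5 line means, 3 against 2 (line test). It called no gene of the 27350 tested at an adjusted p below 0.05 (0%), and the lowest adjusted p was 0.147. Unadjusted, 2304 genes (8.42%) had p below 0.05, of which 957 were higher and 1347 lower in the CIMP+ lines. With the line as a random block in a fit of the 10 libraries, 207 genes were higher and 327 lower. That fit takes a single correlation between libraries of a line for all genes. Libraries then count partly as replicates of CIMP status, so these counts do not replace those of the line test.

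A narrower question is whether these particular lines differ beyond the spread between libraries. The library test, a limma fit of 5 groups with the contrast of the line averages, called 5606 genes higher (20.5%) and 7549 lower (27.6%). A stricter rule asked that each CIMP+ line differ from each CIMP− line in the same direction at an adjusted p below 0.05, in all 6 line pairs. By that rule 703 genes were higher in the CIMP+ lines (2.57%) and 915 lower (3.35%), of which 292 and 482 differed by more than 2 on the log2 scale. Protein-coding genes made up 627 of the higher and 781 of the lower, and long noncoding RNAs 55 and 111. With no test at all, the 6 CIMP+ libraries lay above all 4 CIMP− libraries for 1335 genes (4.88%) and below them for 1711 (6.26%). Without AGS, the only CIMP+ line free of EBV, 1160 genes were higher and 1412 lower in the 4 remaining pairs. These rules describe these 5 lines only, and below "called" means past the adjusted p in all 6 line pairs. Where a CIMP− line is left out, fewer pairs have to pass, and more of all 27350 tested genes are called. Without HGC27 these were 1729 higher and 2537 lower, and without SNU16 2773 and 4159. List counts in those runs are to be read against these totals, not against 2.57% and 3.35%.

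Part of the called lower genes were listed at 0 throughout the CIMP+ lines. Of the 915 lower genes, 165 were listed at 0 in all 6 CIMP+ libraries, whereas 45 of the 703 higher genes were listed at 0 in all 4 CIMP− libraries. Over all tested genes the counts were 2156 listed at 0 in the CIMP+ libraries and 1846 in the CIMP− libraries. The median difference of all genes was −0.07 on the log2(value + 1) scale.

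The 10 higher genes with the smallest line-test p included a tight junction gene, the lysozyme gene and a progenitor factor. CLDN2, which forms cation pores in tight junctions (chromosome X, 106900164 to 106930861), had values of 2680.4 and 2676 in YCCEL1, 2673 and 2669 in SNU719, 2826 and 2777 in AGS, 2.3 and 1.21 in HGC27 and 0 and 0 in SNU16. Its 6 CIMP+ libraries were nearly level and the CIMP− libraries were at or near 0. LYZ, the lysozyme of gastric and Paneth cells (chromosome 12, 69348381 to 69354234), had 44136 and 42903 in YCCEL1, 32069.5 and 31186 in SNU719, 34486 and 34352 in AGS, 46.8 and 69.7 in HGC27 and 145 and 142 in SNU16, and differed by 8.62 ± 0.48 (SE) on the log2 scale (line test, unadjusted p = 2.9e-05, adjusted p = 0.147). SOX9, a transcription factor of epithelial progenitors (chromosome 17, 72121020 to 72126416), had 2656 and 2507 in YCCEL1, 5033 and 4927 in SNU719, 2387 and 2313 in AGS, 5.76 and 15.7 in HGC27 and 23.7 and 24.7 in SNU16, a difference of 7.57 ± 0.56 (SE). In all 3 genes the libraries of the groups were far apart, and HGC27 and SNU16 were alike. GASK1B ranged from 872 to 1500.4 in the CIMP+ libraries and from 8.44 to 25.7 in the CIMP− libraries, and the serine protease PRSS23 from 1522 to 3087 and 48.3 to 175. ICAM1, the adhesion molecule that binds leukocyte integrins, ranged from 189 to 417 and 1.08 to 4.64. MCTP1 and CEMIP, a hyaluronan-degrading protein, were also at or near 0 in the CIMP− lines, at 0 to 0.815 and 1.7 to 18.8 against 229.5 to 432 and 982 to 4845. The phosphatase PTPN12 had the least difference of the 10 genes with the smallest line-test p, 1.84 ± 0.18 (SE), and its AGS libraries lay apart at 1528 and 3838. It lost its call without any 1 of 5 libraries of SNU719, HGC27 and SNU16.

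The 10 lower genes with the smallest line-test p were nearly all silent in the CIMP+ lines. SLC16A9, a monocarboxylate transporter (chromosome 10, 59650764 to 59736002), was listed at 0 in all 6 CIMP+ libraries and had 242 and 202 in HGC27 and 215 and 196 in SNU16. RCOR2, a corepressor of the LSD1 histone demethylase (chromosome 11, 63911230 to 63917164), had 0 and 0 in YCCEL1, 0 and 0 in SNU719, 0.864 and 0 in AGS, 1664 and 1532 in HGC27 and 803 and 689 in SNU16. SLC6A8, whose upstream sequence is shown above (chromosome X, 153687926 to 153696588), had 0 and 0 in YCCEL1, 0 and 0 in SNU719, 0.555 and 1.39 in AGS, 837 and 996 in HGC27 and 1665 and 1475 in SNU16. Its reads may be shared with near-identical copies on another chromosome, so its level is uncertain. Thus 5 of the 6 CIMP+ libraries of RCOR2 and 4 of those of SLC6A8 were listed at 0. PODXL2, PFN2, an actin-binding profilin, and SIRPA, the receptor of CD47, were at 0 in all but 1 CIMP+ library each, with CIMP− ranges of 529.7 to 1158, 578 to 1006 and 271 to 338. MXRA7 and ATP6V0E2, a subunit of the vacuolar proton pump, were low but above 0 in the CIMP+ lines, at 3.02 to 7.49 and 2.49 to 7.79 against 482 to 691 and 438 to 648. MTRNR2L1, at 0 to 3.36 against 666 to 1485, is a nuclear copy of mitochondrial ribosomal RNA, so its reads are uncertain. GALNTL6 reached only 1.91 to 2.98 in the CIMP− libraries, a few reads, and was listed at 0 in the others.

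**Figure D2:**
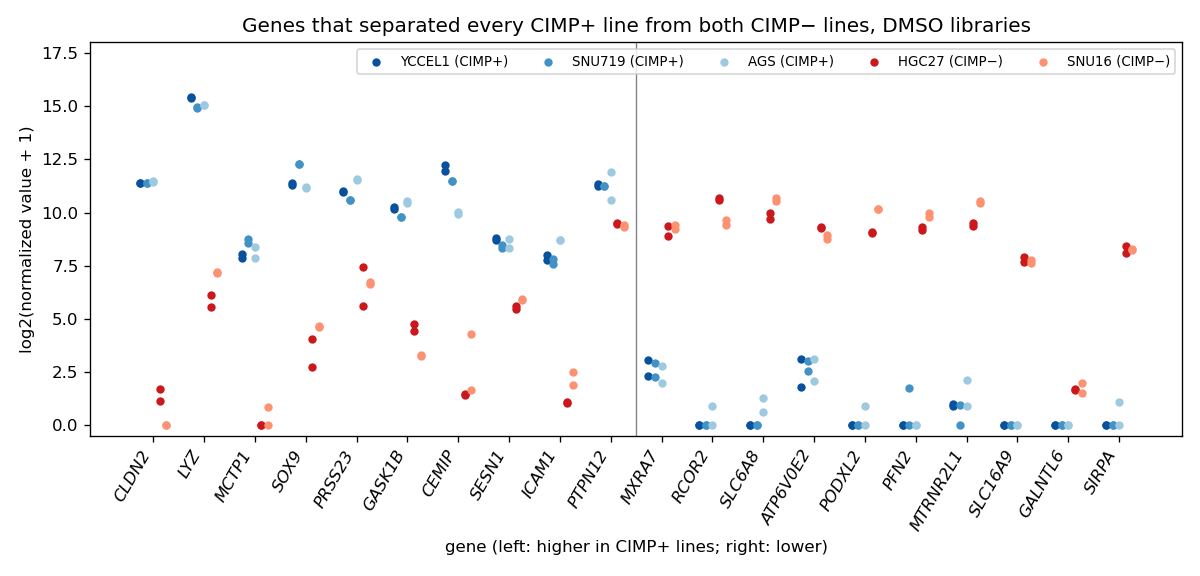
log2(normalized value + 1) of the 10 higher (left) and 10 lower (right) called protein-coding genes with the smallest line-test p, 1 point per DMSO library. The CIMP+ libraries (blue) and CIMP− libraries (red) do not overlap for any of the 20 genes, and most lower genes sit at or near 0 in the CIMP+ lines.

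Known methylation targets of gastric cancer were low in the CIMP+ lines more often than high. Of 60 tested, 7 were called lower (11.7%, against 3.35% of all genes) and 1 higher (1.67%, against 2.57%). The median difference was −1.34 on the log2(value + 1) scale, against −0.07 over all genes. The library test put 33 lower and 11 higher. Without HGC27 the called counts were 12 lower and 2 higher, and without SNU16 26 and 6. Over all 27350 tested genes they were 2537 lower and 1729 higher without HGC27, and 4159 and 2773 without SNU16. The list was chosen with results of these data known, so its counts are a description.

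RARB (chromosome 3, 25174332 to 25597932) was listed at 0 in all 6 CIMP+ libraries and had 59.2 and 65.8 in HGC27 and 56.3 and 59.8 in SNU16 (limma, highest adjusted p of the 6 line pairs 6e-06). RUNX3, a tumour suppressor of the stomach (chromosome 1, 24899511 to 24965121), had 0 and 0 in YCCEL1, 0 and 0 in SNU719, 0 and 1.8 in AGS, 203 and 281 in HGC27 and 95.8 and 97.9 in SNU16. CHFR (chromosome 12, 132822187 to 132956304) had 0.57 and 2.98 in YCCEL1, 22 and 7.99 in SNU719, 2.79 and 8.03 in AGS, 272 and 321 in HGC27 and 325 and 392 in SNU16, a difference of −5.78 ± 0.95 (SE). The CIMP+ libraries of these 3 genes did not overlap the CIMP− libraries, and CHFR kept a low level in SNU719. PLAAT1, a phospholipid acyltransferase, ranged from 0 to 1.19 in the CIMP+ libraries and from 24.9 to 41.2 in the CIMP− libraries. DAPK1, a death-associated kinase, was at 56.1 and 52.8 in YCCEL1, at most 1.64 in SNU719 and AGS, and 176 to 321 in the CIMP− libraries. LOX, a lysyl oxidase, was called although SNU16 held only 0.833 and 0.868, against 504 and 503 in HGC27, so its SNU16 value is about 1 read. CXXC4, a WNT inhibitor, had 61.7 and 164 in HGC27 and 37.9 and 8.29 in SNU16 and at most 2.14 in the CIMP+ libraries. The 1 member called higher was SPINT2, a protease inhibitor, at 6686 to 12794 against 74.8 to 3586, with the low end set by HGC27. DAPK1 and CXXC4 lost their call when single libraries were left out, and LOX with a pseudocount of 10 or no filter.

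Other well-known targets of methylation did not follow CIMP status. CDKN2A, which encodes p16, had values of 1.05 and 0 in YCCEL1, 0 and 0 in SNU719, 0 and 0.761 in AGS, 815 and 839 in HGC27 and 0 and 0 in SNU16, so it was high in HGC27 alone and listed at 0 in SNU16. CDH1, encoding E-cadherin, had 3055 and 2679.8 in YCCEL1, 5018 and 3881 in SNU719, 67.8 and 104 in AGS, 13.5 and 7.72 in HGC27 and 2829.6 and 4044 in SNU16, low in AGS and HGC27 and high in the other 3 lines. These genes were picked for their role, after their values were seen.

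**Figure D3:**
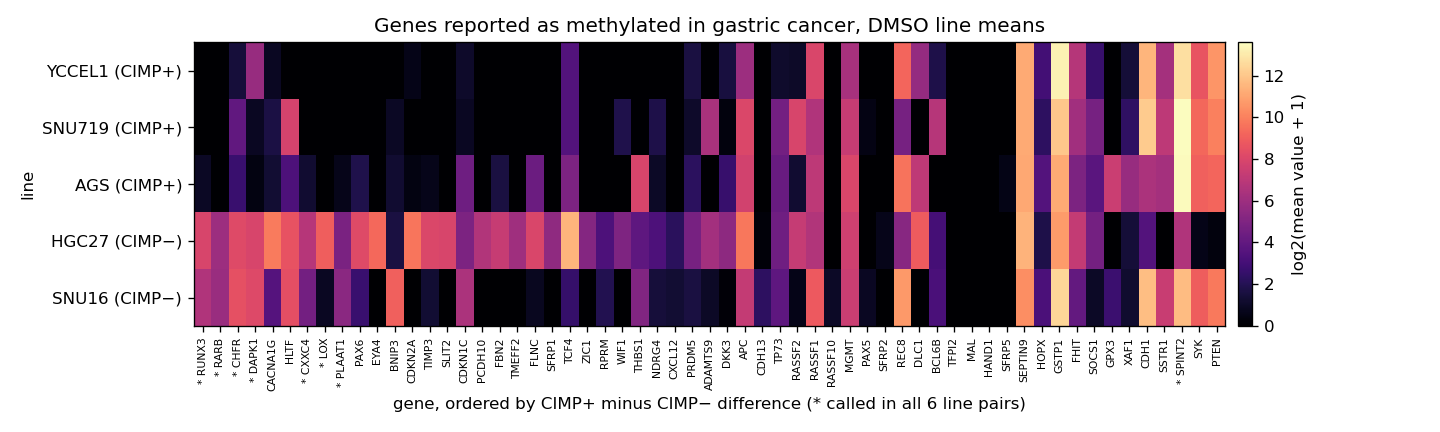
Line means as log2(mean value + 1) of genes from the list of methylation targets of gastric cancer, in the 5 lines, ordered by the CIMP+ minus CIMP− difference, with a star on called genes. Most of the genes at the left are dark in the 3 CIMP+ lines and bright in HGC27, and a smaller number are bright in SNU16 too.

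Among 21 genes that the study names, 4 were called lower (19%, against 3.35% of all genes) and 1 higher (4.76%, against 2.57%), and the study chose them with these samples, so the counts are not independent evidence. Beside RARB and CHFR, the lower genes were MSX1 and THRA. MSX1, a homeobox transcription factor (chromosome 4, 4859665 to 4863936), had 0 and 0 in YCCEL1, 0.995 and 0.903 in SNU719, 0 and 1.05 in AGS, 210.4 and 184 in HGC27 and 37.4 and 48.3 in SNU16. THRA, a thyroid hormone receptor, had 501 and 431 in YCCEL1, 453 and 464 in SNU719, 536 and 612 in AGS, 1662 and 1598 in HGC27 and 987 and 977 in SNU16, a difference of −1.35 ± 0.31 (SE). The higher gene was NFE2L2, the NRF2 activator of antioxidant genes, with 1787 and 1704 in YCCEL1, 1215 and 1216 in SNU719, 1198 and 1021 in AGS, 709 and 841 in HGC27 and 624 and 646 in SNU16 and a difference of 0.92 ± 0.29 (SE). NFE2L2 lost its call with quantile normalization. MSX1 was near 0 in the CIMP+ lines, while THRA and NFE2L2 were expressed in all 5 lines and differed in degree.

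The other 16 were not called, and many were set by 1 line. NKD1, a WNT inhibitor, had 0.745 and 0.419 in YCCEL1, 11.8 and 0.812 in SNU719, 2604 and 2621 in AGS, 5092 and 5016 in HGC27 and 2.4 and 10.9 in SNU16, so AGS and HGC27 were high and the other 3 lines low. SFRP1, a secreted WNT antagonist, was listed at 0 in every library except those of HGC27, with 48.5 and 43.7. DDX4, a germ cell helicase, was listed at 0 in every library except those of SNU719, with 295 and 362. None of these patterns followed CIMP status. CDKN1C, which encodes p57, had 2.23 and 0 in YCCEL1, 0.838 and 0.839 in SNU719, 25.4 and 15.6 in AGS, 43.4 and 15.7 in HGC27 and 89 and 81.1 in SNU16, with the AGS values at 25.4 and 15.6 overlapping those of HGC27. RASSF1 had its highest values in SNU16, 443 and 488, and was lower in HGC27 (104 and 97.3) than in YCCEL1 (245 and 262). INPP4B, a phosphoinositide phosphatase, was high in YCCEL1 alone, with 356 and 334 against at most 59.4 in every other library. HOPX reached at most 16.1, INHBB at most 12.1, and NOX5 at most 4.88 in any library. DUOX1 and DUOX2, which make hydrogen peroxide, stayed at or below 18.5 and 11.7. GPX1, DUSP1, MEF2A, ATF1 and RARA were expressed in all lines, with overlapping groups.

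RARB was the 1 called gene of 29 tested in the retinoic acid pathway (3.45%, against 3.35% of all genes). The related receptor RARA, which binds the same ligand, had 189 and 164 in YCCEL1, 233 and 209 in SNU719, 228 and 252 in AGS, 358 and 377 in HGC27 and 237 and 252 in SNU16, so all lines expressed it. RBP4, a retinol carrier, reached 732 and 676 in SNU16 and at most 2.86 elsewhere, and LRAT, which esterifies retinol, was at most 1.67 in any library. The library test put 13 members lower and 2 higher, with a median difference of −0.51. Without HGC27, 6 members were called lower and 2 higher, and without SNU16 5 and 2. More of all 27350 tested genes were called in those runs as well, 2537 lower and 1729 higher without HGC27, and 4159 and 2773 without SNU16. Whether the list differs from those shares was not tested.

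HOX genes, which pattern the body axis, had the largest share of members called lower among the lists in the plot of list shares. Of 38 tested, 6 were called lower (15.8%, against 3.35% of all genes) and none higher, and the library test put 30 lower and 1 higher. The median difference was −2.67 on the log2(value + 1) scale. Without HGC27, 9 were called lower and 0 higher, and without SNU16 19 and 0. Of all 27350 tested genes, 2537 were called lower without HGC27 and 4159 without SNU16. HOXC11 (chromosome 12, 53973126 to 53977643) was listed at 0 in all CIMP+ libraries and had 155 and 178 in HGC27 and 225 and 232 in SNU16. HOXC10 had 0.541 and 0 in YCCEL1, 3.73 and 3.08 in SNU719, 0 and 1.86 in AGS, 474 and 447 in HGC27 and 628 and 589.6 in SNU16. HOXA6 was listed at 0 in the CIMP+ libraries and low in the others, at 2.55 to 14.9. HOXC6 was expressed in all lines, at 17 to 56.5 in the CIMP+ libraries and 80.1 to 229 in the CIMP− libraries, and lost its call without any 1 library of the other 4 lines than HGC27. The CIMP+ lines did not all share the level of the other 2 members. HOXA11 was listed at 0 in AGS but had 34 and 36.5 in YCCEL1 and 110.2 and 127 in SNU719, below its CIMP− range of 195 to 272. HOXB13 was listed at 0 in SNU719, at 15 and 9.93 in YCCEL1 and 27.6 and 34.7 in AGS, and ranged from 101 to 326 in the CIMP− libraries.

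CDK inhibitors and DNA damage response genes had the largest share of members called higher among the lists in that plot. The list was drawn up as CDK inhibitors and genes of the p53 axis, and carries the broader label in the text and plots. DNA damage is known to induce genes of cell cycle arrest and cell death, and damage was not measured here. Of 28 tested, 8 were called higher (28.6%, against 2.57% of all genes) and none lower. The library test put 20 higher and 5 lower, and the median difference was 1.34. Without HGC27, 14 were called higher and 0 lower, and without SNU16 12 and 4. Of all 27350 tested genes, 1729 were called higher without HGC27 and 2773 without SNU16. CDKN1A, which encodes the arrest protein p21 (chromosome 6, 36676460 to 36687337), had 1516 and 1755 in YCCEL1, 972 and 944 in SNU719, 2093 and 1995 in AGS, 114 and 123 in HGC27 and 265 and 236 in SNU16, a difference of 3.09 ± 0.51 (SE) (unadjusted p = 0.0029 in the limma line test). BBC3, which encodes the death protein PUMA (chromosome 19, 47220822 to 47232766), had 1279.9 and 1301 in YCCEL1, 662 and 600.2 in SNU719, 924 and 838 in AGS, 86.6 and 81.4 in HGC27 and 52.8 and 79.2 in SNU16, a difference of 3.58 ± 0.39 (SE). SESN1, whose upstream sequence is shown above, had 452 and 414 in YCCEL1, 356 and 326 in SNU719, 434 and 325 in AGS, 47.8 and 43.4 in HGC27 and 58 and 60 in SNU16, a difference of 2.85 ± 0.28 (SE). In these 3 genes every CIMP+ library lay well above every CIMP− library, and HGC27 and SNU16 were closer to each other than to any CIMP+ line.

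The other 5 called members had distinct roles. MDM2, a ubiquitin ligase, was highest in YCCEL1 at 5931 ± 218 (SD, n = 2), with 1654 ± 77.5 in SNU719, 1021 ± 15.8 in AGS, 213 ± 27 in HGC27 and 442 ± 12.2 in SNU16. ZMAT3, an RNA-binding protein, ranged from 305 to 535 and 38.7 to 93.6. BAX, a pore former of mitochondrial death, ranged from 1317 to 2306 and 332 to 898, and the exonuclease AEN from 637 to 1397 and 128 to 382. FDXR, a mitochondrial reductase, was close to the threshold, since AGS held 314 and 336 against 263 and 249.5 in HGC27, and it lost its call without any 1 library of YCCEL1, SNU719, AGS or HGC27.

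**Figure D4:**
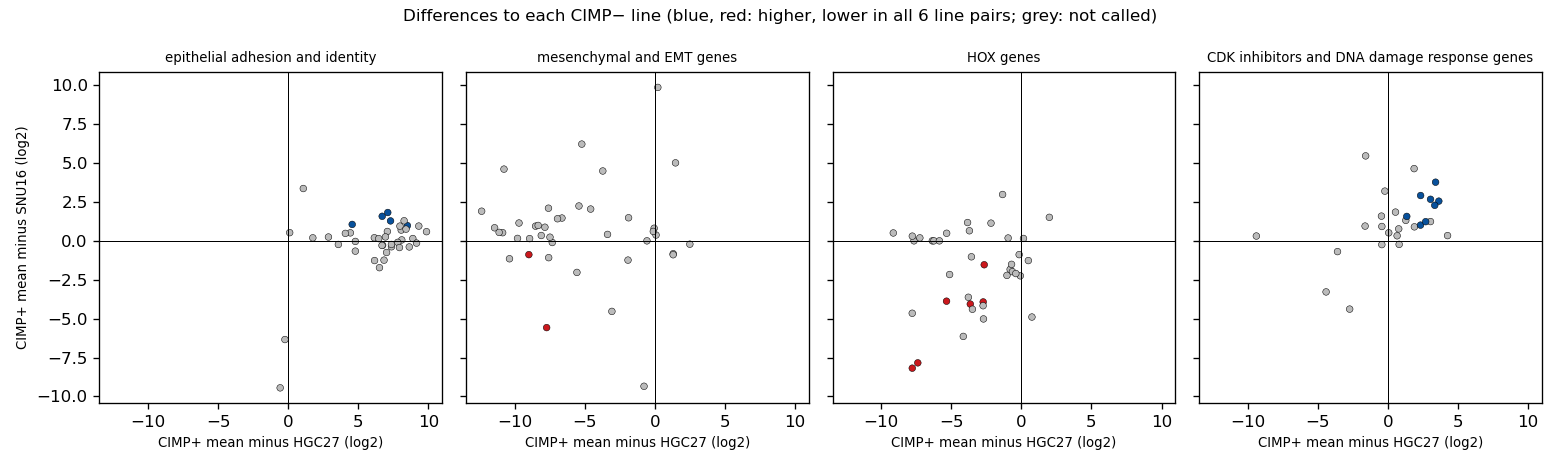
Members of 4 gene lists, each a point, by the mean of the 3 CIMP+ lines minus HGC27 (x axis) and minus SNU16 (y axis), on the log2(value + 1) scale. Epithelial and mesenchymal members spread along the HGC27 axis. Called members of any list (blue higher, red lower) lie away from 0 on both axes by the rule for a call.

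Epithelial genes were higher in the CIMP+ lines by the library test, in 37 of 40 members with 2 lower, but the difference rested on HGC27. In all 6 pairs 5 were called higher (12.5%, against 2.57% of all genes) and none lower, without SNU16 36 were called higher, and without HGC27 7 were called higher and 6 lower. The 5 were PRSS8, SPINT2, ST14, OCLN and LSR. ST14, the membrane protease matriptase, had 3069.9 and 3208 in YCCEL1, 3438 and 3619 in SNU719, 3096 and 3005 in AGS, 10.3 and 6.02 in HGC27 and 1667 and 1609 in SNU16, and PRSS8, the protease prostasin, had 950.3 and 1069.6 in YCCEL1, 949 and 992 in SNU719, 1492 and 1589 in AGS, 11.9 and 4.42 in HGC27 and 374 and 280.4 in SNU16. SPINT2, which inhibits both proteases, had 6686 and 6899 in YCCEL1, 11939 and 12794 in SNU719, 11084 and 12122 in AGS, 118 and 74.8 in HGC27 and 3586 and 3071 in SNU16. SNU16 was below the CIMP+ lines in these genes and HGC27 far lower. OCLN, a tight junction protein, was at 416 to 944 against 275 and 339 in SNU16, and LSR, of tricellular junctions, at 2434 to 4791 against 1478 and 1471. LSR alone of the 5 kept its call without each single library.

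Mesenchymal genes went the other way, again with HGC27. Of 40 tested, 27 were lower and 3 higher by the library test, with a median difference of −3.28, yet 2, COL5A2 and LOX, were called lower in all 6 pairs (5%, against 3.35% of all genes) and none higher. LOX is the gene described above at about 1 read in SNU16, and it lost its call with a pseudocount of 10 and with no filter. Without SNU16 23 were called lower, and without HGC27 4 lower and 5 higher. COL5A2, a fibrillar collagen chain, had 14.6 and 4.92 in YCCEL1, 4.68 and 15.3 in SNU719, 9.55 and 5.93 in AGS, 1998 and 1877 in HGC27 and 415 and 467 in SNU16, so SNU16 was above the CIMP+ lines too. LUM, a collagen-binding proteoglycan that belongs to the fibroblast markers and not to this list, was listed at 0 in all CIMP+ libraries but 1 and had 2251 and 2213 in HGC27 and 132 and 101 in SNU16. CAV1 and PDGFRB were not called, with 15.4 and 15 in HGC27 and 49.5 and 39.3 in SNU16 for CAV1, and 38.8 and 135 in HGC27 and 6.02 and 4.82 in SNU16 for PDGFRB.

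Gastric mucosa genes were mixed, with 3 of 27 called higher (11.1%, against 2.57% of all genes) and 1 lower (3.7%, against 3.35%). Beside LYZ, SLC26A9, a chloride channel of gastric epithelium, had 1841 and 1875 in YCCEL1, 63.4 and 55.3 in SNU719, 40.1 and 53.1 in AGS, 0 and 1.06 in HGC27 and 0 and 0 in SNU16, with YCCEL1 far above the other CIMP+ lines. SOX2, a foregut transcription factor, had 601 and 573 in YCCEL1, 430.1 and 389 in SNU719, 316 and 309 in AGS, 2.3 and 1.21 in HGC27 and 195 and 182 in SNU16. PSCA, a surface antigen of the gastric isthmus, was lower, at 0 to 6.52 against 22.6 to 100.4. Among 35 intestinal genes 1 was called in each direction (2.86%, near the shares of all genes). ANPEP, a brush border peptidase, was at most 1.7 in the CIMP+ libraries and had 6.25 and 6.26 in HGC27 and 581 and 469 in SNU16. Without HGC27, 9 gastric and 16 intestinal members were called lower and 3 and 2 higher, and without SNU16 9 and 11 were called higher and 0 and 1 lower, so the direction turned with the CIMP− line. SOX2, PSCA and ANPEP lost their calls when single libraries were left out.

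WNT antagonists were called in both directions, 3 of 30 each (10%, against 2.57% of all genes higher and 3.35% lower). RNF43 and ZNRF3 remove WNT receptors from the membrane, and RNF43 had 2363 and 2289 in YCCEL1, 3856 and 3608 in SNU719, 2921 and 2864 in AGS, 39.2 and 53.1 in HGC27 and 228 and 165 in SNU16, a difference of 4.94 ± 0.70 (SE). ZNRF3 differed less, with HGC27 at 313 and 341 against a lowest CIMP+ value of 385, and lost its call when single libraries were left out. DKK4, a secreted inhibitor, had 97.9 and 83.4 in YCCEL1, 266 and 298 in SNU719, 7.13 and 6.71 in AGS, 0 and 1.21 in HGC27 and 0 and 0 in SNU16. All 3 were higher in the CIMP+ lines. The lower ones were CXXC4, DACT1 and FRZB, and DACT1, a dishevelled antagonist, had 0 and 0 in YCCEL1, 1.88 and 3.07 in SNU719, 0 and 0.992 in AGS, 39.8 and 26.8 in HGC27 and 77 and 102 in SNU16. FRZB, a secreted frizzled decoy, ranged from 0 to 2.98 in the CIMP+ libraries, against 36.8 and 27.8 in HGC27 and 181 and 199 in SNU16. Without HGC27, 6 were called higher and 3 lower, and without SNU16 4 and 15.

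Genes of the DNA methylation machinery went both ways. Of 24 tested, 1 was called higher (4.17%, against 2.57% of all genes) and none lower, with a median difference of 0.03, and 8 were higher and 6 lower by the library test. Without HGC27 4 were called higher and 4 lower, and without SNU16 again 4 and 4. DNMT1, the maintenance methyltransferase, had 1257 and 927 in YCCEL1, 951 and 966 in SNU719, 1214 and 981 in AGS, 1152 and 1185 in HGC27 and 1493 and 1957 in SNU16, and its groups overlapped. DNMT3A, a de novo methyltransferase, had 241 and 231 in YCCEL1, 1204 and 893 in SNU719, 752 and 591 in AGS, 245 and 259 in HGC27 and 20.3 and 124 in SNU16, with YCCEL1 and HGC27 level and SNU16 lowest. DNMT3B had 101 and 108 in YCCEL1, 80.4 and 97.6 in SNU719, 235 and 242 in AGS, 125 and 144 in HGC27 and 9.82 and 6.82 in SNU16, again lowest in SNU16 and otherwise overlapping. UHRF1 had 365 and 395 in YCCEL1, 478 and 428 in SNU719, 492 and 463 in AGS, 170.4 and 161 in HGC27 and 1199 and 1082 in SNU16, so SNU16 lay above and HGC27 below all CIMP+ lines. TET1 had 29.1 and 8.93 in YCCEL1, 25.4 and 25 in SNU719, 25 and 19 in AGS, 124 and 138 in HGC27 and 0.949 and 1.98 in SNU16, so HGC27 lay above and SNU16 below them. The called member was ZBTB38, a reader of methylated CpG, at 356 to 1089.9 in the CIMP+ libraries and 61.5 to 168 in the CIMP− libraries, a call lost without 1 library of SNU719 or HGC27. DNMT1, DNMT3B, UHRF1 and TET1 were picked for their role.

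Antigen presentation and innate immune genes were more often higher than lower in the CIMP+ lines by the library test, which put 20.5% of all genes higher and 27.6% lower. EBV and CIMP cannot be told apart here except through AGS. In MHC class I presentation 13 of 22 were higher and 2 lower, and 2 were called (9.09%, against 2.57% of all genes), both higher. Without HGC27 the class I genes were more even, 8 higher and 6 lower by the library test with 2 called higher and 1 lower, whereas without SNU16 12 were called higher and 0 lower. CALR, a chaperone of the class I loading complex, had 7871 and 7986 in YCCEL1, 6654 and 6789 in SNU719, 8722 and 8569.9 in AGS, 3332 and 3405 in HGC27 and 4765 and 4672 in SNU16, a difference of 0.95 ± 0.30 (SE). In MHC class II 7 of 12 were higher and 0 lower, and HLA-DQB1 alone was called (8.33%, against 2.57%), with 158 and 227 in YCCEL1, 107 and 115 in SNU719, 13 and 4.05 in AGS, 0 and 2.39 in HGC27 and 0 and 0 in SNU16. HLA genes are highly similar to one another, so the split of reads among them is uncertain, and HLA-DQB1 also lost its call at either other pseudocount and without most single libraries. Without HGC27 2 class II genes were called higher, and without SNU16 0. HLA-DRA was listed at 0 in AGS, HGC27 and SNU16 and was at 25.1 and 25.3 in YCCEL1 and 8.9 and 9.75 in SNU719, so it was above 0 in both EBV+ lines. Of 42 interferon-stimulated genes 21 were higher and 6 lower by the library test, and 1 was called, higher (2.38%, against 2.57% of all genes). Without HGC27 4 were called higher and 3 lower, and without SNU16 10 and 3. Of 14 nucleic acid sensors 11 were higher and 1 lower, and IFI16, a DNA sensor, was called higher (7.14%, against 2.57%), listed at 0 in the CIMP− libraries and at 432 and 416 in YCCEL1, 3.56 and 3.28 in SNU719 and 26.1 and 37.3 in AGS, a call lost with a pseudocount of 10. Without HGC27 2 sensors were called higher and 0 lower, and without SNU16 5 and 0. Of 24 chemokines and cytokines 2 were called (8.33%, against 2.57%), both higher. CXCL8, a neutrophil attractant, had 369 and 365 in YCCEL1, 134 and 159.5 in SNU719, 44.8 and 47.7 in AGS, 0 and 0 in HGC27 and 3.6 and 2.25 in SNU16, and CXCL1 ranged from 16.7 to 76.7 against 0 to 4.89. Without HGC27 2 of this list were called higher and 1 lower, and without SNU16 7 and 1.

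Among 29 receptor kinases and oncogenes 3 were called higher (10.3%, against 2.57% of all genes) and 1 lower (3.45%, against 3.35%). Without HGC27 10 were called higher and 5 lower, and without SNU16 8 and 5. MYC, the lower one, had 1745 and 1555 in YCCEL1, 1141 and 1078 in SNU719, 953 and 1126 in AGS, 2922 and 2919 in HGC27 and 7107 and 6900.5 in SNU16, a difference of −1.87 ± 0.49 (SE), and SNU16 was highest. EPHA2, an ephrin receptor, ranged from 1327 to 2113 and 67.1 to 480.1, CDK6 from 723 to 1697 and 145 to 487, and CCND1, cyclin D1, from 2738 to 5509 and 2010.0 to 2457, with the CIMP+ range first. Of 32 proliferation genes 1 was called lower (3.12%, against 3.35%), CDCA8 of the chromosomal passenger complex, at 193 to 344 against 379.9 to 1117, a call lost without AGS replicate 2, with no filter and with a mean of at least 10 in a line. That list turned with the CIMP− line, since 8 were called lower and 0 higher without HGC27 and 13 higher with 1 lower without SNU16.

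Of 39 genes that make or remove reactive oxygen, NFE2L2 was called higher and PRDX2, a peroxiredoxin, lower (2.56% each, against 2.57% and 3.35% of all genes). Without HGC27 3 were called higher and 10 lower, and without SNU16 9 and 3, so this list turned with the CIMP− line. PRDX2 had 1200.2 and 1194 in YCCEL1, 1203 and 1211 in SNU719, 977 and 997 in AGS, 1365 and 1400.2 in HGC27 and 1818 and 1769 in SNU16, a difference of −0.48 ± 0.23 (SE). KEAP1, the inhibitor of NRF2, was not called, although its CIMP+ range of 504 to 851 lay below its CIMP− range of 1001 to 1942. Among 9 metallothioneins, metal-binding proteins, 1 was called lower (11.1%, against 3.35%), MT2A, at 45.6 to 91.6 against 1357 and 1363 in HGC27 and 283 and 270.0 in SNU16. Without HGC27 4 were called lower and 0 higher, and without SNU16 3 and 1. Among 41 cancer-testis antigens, germline genes known to be held silent by methylation, none was called, and 13 were lower and 5 higher by the library test, against 27.6% and 20.5% of all genes. Without HGC27 1 was called lower and 0 higher, and without SNU16 11 and 0. MAGEA11 was at most 1.02 outside HGC27, where it had 483 and 530.1, and CTAG2 was high in HGC27, SNU719 and SNU16 and listed at 0 in YCCEL1 and AGS. Of 15 reference genes none was called, and 4 were higher and 5 lower by the library test, against the same shares.

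**Figure D5:**
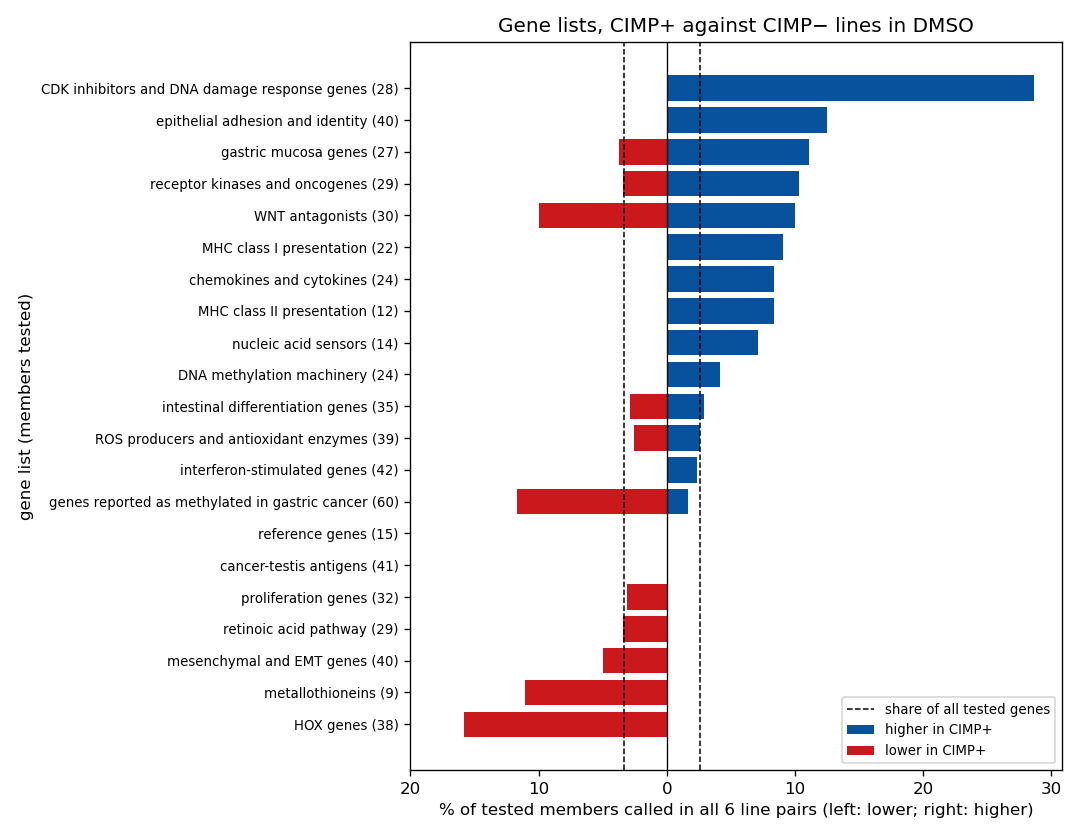
Share of tested members of each gene list called in all 6 line pairs, higher to the right and lower to the left, with the share over all tested genes as dashed lines (2.57% and 3.35%). The list of CDK inhibitors and DNA damage response genes reaches 28.6% on the higher side and the HOX list 15.8% on the lower side.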

How the data were processed

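The deposited table holds values that the authors made as normalized estimated counts per gene, which carry no named unit and are treated as signal. The paper's methods give QuantSeq libraries and STAR alignment against GRCh38 plus EBV. The submitters' notes instead give NEBNext libraries and GRCh37, with STAR 2.5.2b, counting by featureCounts 1.5.1 and normalization tools from DESeq2 1.14.1. The table's coordinates are those of GRCh38, since 92.6% of 60064 genes share start and end with GENCODE v44. In each library 50.1% to 54.1% of values under 40 are whole multiples of a step (within 0.02 of it). A count model had been planned for whole counts, and since these are not whole limma on log values was used.

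Of 60232 genes, 20976 were at 0 in every library, and 27350 with a sum above 10 over the 20 columns were tested as log2(value + 1), with limma 3.58.1 (lmFit, eBayes with trend) in R 4.3.3, with Benjamini-Hochberg adjusted p below 0.05. The line test used 5 line means (3 residual df), and the library test and line pairs a fit of 5 groups. Errors are the SD over 2 libraries for a mean and limma's SE for a difference. Differences are on the log2(value + 1) scale, which understates the change of low genes, and none is given where a group is listed at 0. The total values limit precision near 0, where 1 read is worth about 1 unit.

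Named genes were those the study names, the 10 higher and 10 lower called protein-coding genes with the smallest line-test p, and up to 4 members of each list, called members first. Other called list members and genes picked for their role are outside that rule. Members, lists and rules were chosen with earlier results of these data known, and the ATF4 and WNT target lists after the values were seen. The methods were tested on simulated data. Plots used Python 3.11.15 and matplotlib 3.10.9. Sequences came from RefSeq, where PFN2, LYZ, SOX9, RCOR2, SIRPA, HOXC11 and CDKN1C had no match by symbol. Methylation data and EBV genes were not analysed here. Some members of the lists are counted but not reported here by name. Alternatives to the pseudocount, filter, scaling, fold limit, libraries, lines and model were tried.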

Additional observations from a re-analysis of the deposited data

Results flagged for a closer look

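The effects against the 2 CIMP− lines differed in direction for 412 genes. In 230 genes (0.841%) every CIMP+ line lay above HGC27 and below SNU16, and in 182 genes (0.665%) every CIMP+ line lay below HGC27 and above SNU16, with all 6 line pairs and SNU16 against HGC27 past an adjusted p of 0.05 in limma. SNU16 and HGC27 themselves differed in 12705 genes (46.5%). Of the members of the gene lists, 20 did so, and the 4 with the largest difference between SNU16 and HGC27 that were above 0 in both were taken after the values were seen.

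VIM was at 72246 ± 720.1 (SD, n = 2) in HGC27, 0.968 ± 1.37 in SNU16 and 27.5 ± 9.99, 39.2 ± 16.6 and 68.9 ± 16.4 in YCCEL1, SNU719 and AGS, a SNU16 minus HGC27 difference of −15.36 on the log2(value + 1) scale. AKR1B10, an aldo-keto reductase, was at 1.42 ± 0.713 in HGC27, 4105 ± 31.7 in SNU16 and 64.2 ± 3.62, 317 ± 71.5 and 9.89 ± 0.0987 in the CIMP+ lines in that order, a difference of 10.76. CEACAM5, the carcinoembryonic antigen, was at 1.0 ± 1.42 in HGC27, 2658 ± 129.9 in SNU16 and 105 ± 14, 22.7 ± 3.46 and 369 ± 113 in the CIMP+ lines, a difference of 10.58. LGALS4, a gut galectin, was at 12.4 ± 2.45 in HGC27, 10607 ± 211 in SNU16 and 201 ± 40.6, 4271 ± 12.8 and 450.2 ± 89.7 in the CIMP+ lines, a difference of 9.64. In these 4 genes the CIMP− lines sat at opposite ends, with the CIMP+ lines between them.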

How the results depend on the processing

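With 3 lines against 2, the line test rests on 3 residual degrees of freedom, and its count of 0 moved to 1 gene higher with a pseudocount of 10, 2 higher with no filter, and 2 higher with a mean of at least 10 in a line. A different fit, of the 10 libraries with the line as a random block, gave 207 higher and 327 lower. There the libraries of a line count partly as replicates of CIMP status. Leaving out a line left 1 line alone in its group where it was CIMP−, and that lone line was then assumed to vary like the others: without HGC27 the line test called 59 higher and 894 lower, and without SNU16 395 and 1882. The cause was not tested. In the line pairs, fewer pairs had to pass by construction, and 1729 were higher and 2537 lower without HGC27, 2773 and 4159 without SNU16, and 1160 and 1412 without AGS. An absolute log2 difference above 2 left 292 higher and 482 lower in the line pairs and 1186 and 2274 in the library test. Without 1 library at a time, the line test gave 0 in each direction, the line pairs 588 to 709 higher and 798 to 847 lower, and the library test 5085 to 5435 and 6769 to 7189. Quantile normalization moved the median difference of all genes from −0.07 to 0.03, with 779 higher and 848 lower in the line pairs.

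Replicate numbers did not pair the samples, since the deviations of same-numbered libraries correlated at −0.016 to 0.019 over 10 pairs of lines (10573 genes). With the replicate block, the line pairs gave 672 higher and 873 lower and the library test 5530 and 7399, and 2 named genes, HLA-DQB1 and PSCA, lost their call.

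Of 82 named genes called, 63 kept the call under each alternative run, and 16 lost it when 1 library was left out: ANPEP, CDCA8, CXXC4, DAPK1, FDXR, HLA-DQB1, HOXC6, OCLN, PRSS8, PSCA, PTPN12, SOX2, SPINT2, ST14, ZBTB38 and ZNRF3. For each of them the line with a library left out kept 1 library. IFI16 and LOX lost it with a pseudocount of 10, LOX also with no filter, and NFE2L2 with quantile normalization. Among genes called in the main or the alternative run, the group difference changed sign without HGC27 for VIM (4.61), CEACAM5 (−4.78) and LGALS4 (−3.87). It changed sign without SNU16 for UHRF1 (1.39), TET1 (−2.60) and AKR1B10 (4.68). With all lines the difference was −0.0004 ± 0.89 (SE) for UHRF1, 0.29 ± 1.90 for TET1 and −3.07 ± 4.78 for VIM. Each of these was smaller than its SE, so no clear difference was reversed there. Changes of sign in genes called in neither run were not counted.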

Other observations

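A pair of gene lists was drawn up after the values were seen, and they are described here with no test of the lists. Targets of WNT signalling and markers of intestinal stem cells were called higher in 7 of 19 members (36.8%, against 2.57% of all genes) and lower in 1 (5.26%, against 3.35%). LGR5, a stem cell receptor of R-spondins, had 575 and 582 in YCCEL1, 716 and 742 in SNU719, 3541 and 3274 in AGS, 3.12 and 2.46 in HGC27 and 0 and 0 in SNU16, so it was near or at 0 in both CIMP− lines and highest in AGS. BAMBI, a decoy receptor of TGF-beta ligands, had 2329 and 2377 in YCCEL1, 1405 and 1459.6 in SNU719, 2743 and 2739 in AGS, 155 and 127 in HGC27 and 204 and 243 in SNU16, a difference of 3.56 ± 0.41 (SE). EPHB2, an ephrin receptor of crypt cells, ranged from 766 to 2309.6 in the CIMP+ libraries, with 292 and 261 in HGC27 and 8.55 and 12.9 in SNU16. SOX9, RNF43, ZNRF3 and CCND1 were the other members called higher and MYC the lower one. AXIN2, a widely used WNT target, did not follow CIMP status, with 3200.3 and 3263 in YCCEL1, 1545 and 1523 in SNU719, 3853 and 3959.9 in AGS, 2566 and 2681 in HGC27 and 27.4 and 27.4 in SNU16, so SNU16 alone was low. Without HGC27 12 were called higher and 2 lower, and without SNU16 8 and 3.

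Of 34 genes of the ATF4 and amino acid response 5 were called lower in the CIMP+ lines (14.7%, against 3.35%) and none higher. The library test put 23 lower and 7 higher, with a median difference of −0.50 on the log2(value + 1) scale. TRIB3, a pseudokinase, had 1.22 and 1.37 in YCCEL1, 0 and 0 in SNU719, 1.72 and 4.31 in AGS, 1255 and 1213 in HGC27 and 2944 and 2964 in SNU16. ALDH1L2, a mitochondrial folate enzyme, had 0 and 1.97 in YCCEL1, 3.78 and 5.15 in SNU719, 0.884 and 1.11 in AGS, 834 and 731 in HGC27 and 1211 and 1219 in SNU16. PHGDH, the first enzyme of serine synthesis, had 0 and 0.583 in YCCEL1, 751 and 592 in SNU719, 1.57 and 6.23 in AGS, 6065 and 5827 in HGC27 and 3956 and 4263 in SNU16, so SNU719 kept a level that YCCEL1 and AGS lacked. NUPR1 and DDIT4, stress genes, ranged from 4.32 to 155 and 557 to 1774 in the CIMP+ libraries and from 553 to 1238 and 2129 to 5422 in the CIMP− libraries. ATF4 itself had 8929.7 and 8668 in YCCEL1, 3084 and 3026 in SNU719, 4998 and 5038 in AGS, 6185 and 6102 in HGC27 and 8293 and 8195 in SNU16, and its groups overlapped. Without HGC27 9 were called lower and 0 higher, and without SNU16 11 and 2.

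Each line was also set against the other 4. HGC27 was above all 4 in 3424 genes and below all 4 in 2296, and SNU16 in 1704 and 1042. The CIMP+ lines stood apart less often, AGS in 1073 and 760, SNU719 in 940 and 611 and YCCEL1 in 914 and 878. These counts, of 27350 tested genes, needed 4 pairs of lines to pass. By the rule of all 6 pairs, 703 genes were higher and 915 lower in each CIMP+ line than in each CIMP− line. The rules differ in strictness, so the counts are not directly comparable. The first 4 principal components of the 10 libraries held 42.1%, 20.6%, 15.3% and 12.4% of the variance.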
